A study of Mus musculus with 20 samples.

Results

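The genes described here encode the proteins of the mitochondrial ribosome. They were chosen by symbol, as all mouse genes named Mrpl or Mrps with a number and, for some, a letter from a to c, which gave 78 genes of 34937 counted. Of these, 49 are Mrpl genes, named for the large subunit, and 29 are Mrps genes, named for the small subunit. RNA was measured in single 8C (8-cell) embryos collected at E2.5, and counts of 9 control (Ehmt2Cntr) and 10 maternally depleted (Ehmt2Mat) embryos were analysed, with no counts of control 4 analysed here. Ehmt2 encodes the histone methyltransferase G9a. The mothers of controls were Ehmt2F/+ and those of Ehmt2Mat embryos were Ehmt2F/-, and all mothers carried Zp3-Cre, so that their conditional allele was recombined in the growing oocyte. Fathers carried Ehmt2+/-, the background was mixed, and only embryos of normal morphology were used. Among controls, 3 embryos had the zygotic genotype +/- and 6 had +/+, and among Ehmt2Mat embryos 5 were -/- (Ehmt2M/Z) and 5 were +/- (Ehmt2M/+). No mother or litter is named, so an effect of the mother cannot be told apart from maternal genotype, and embryos were treated as separate samples.

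Mitochondrial ribosomes translate the small set of respiratory chain proteins that the mitochondrial genome encodes. Their rRNAs come from that genome, while all of their proteins are encoded in the nucleus, made in the cytosol and imported. The small subunit reads the mRNA and the large subunit forms the peptide bonds and releases the chain at the inner membrane. Mitochondria of the preimplantation embryo are inherited from the oocyte, and early embryos are known for using mitochondrial respiration.

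The total count per embryo lay between 8231646 and 30602434, so that 3 counts were worth 0.098 to 0.364 CPM (counts scaled to the size of the library). Markers of the preimplantation embryo such as Dppa3 (at least 1261 CPM in every embryo) and Pou5f1 (at least 43.1 CPM) were present, while the 7 cumulus cell markers summed to at most 5.02 CPM and 4 of them had no count in any embryo. The 8 oocyte markers summed to 56.1 to 354 CPM in controls and 125 to 398 CPM in Ehmt2Mat embryos, and their part in the values below was not tested. Of these, Oosp1 rose by a log2 fold change of 2.70 (SE 0.54, adjusted p = 0.00277 from edgeR), from a median of 8.46 CPM to 63.0 CPM, and the other 7 were not called. Of the embryo markers, Klf5 fell by 1.49 on the log2 scale, and Tead4 and Tfap2c rose by 0.90 and 0.75. Ehmt2 itself was counted at 58.7 to 115 CPM in the 5 Ehmt2M/Z embryos, at 77.3 to 159 CPM in the 5 Ehmt2M/+ embryos, at 133 to 154 CPM in the 3 +/- controls and at 66.6 to 253 CPM in the 6 +/+ controls, so reads on the gene remained in all groups. The number of genes with a count was 12068 to 16142 in controls (median 12848) and 12754 to 16412 in Ehmt2Mat embryos (median 14488), which gave p = 0.0364 in a two-sided exact permutation test over 92378 splits and 0.109 after adjustment over 3 measures. The other measures were the total count (p = 0.367, same exact permutation test) and the share of counts on the mitochondrial genome (p = 0.706, same exact permutation test). Control 10 stood apart from the other controls, with 16142 genes detected against 12068 to 13230 and a score of 5.36 on the first principal component of log2 CPM against -70.6 to -30.9. Ehmt2Mat embryos scored between 6.04 and 89.5. The main values that rest on control 10 are also given without it, a choice made after the data were seen. The permutation test of genes detected was not repeated without control 10. The Ehmt2Mat median of 14488 genes lay above the 13230 of the highest other control.

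Messenger RNA of almost the whole family was present at the 8C stage. Of the 78 genes, 76 had a count in every embryo, and the control median was above 100 CPM for 20 genes, between 10 and 100 CPM for 53 and at or below 10 CPM for 5. Summed over the family, control embryos held 5080 to 7802 CPM (median 6629) and Ehmt2Mat embryos 4637 to 7716 CPM (median 6742), so the groups overlapped over nearly their whole range. Counted per kilobase of exon, as a rough scale between genes, the highest control medians were those of Mrpl40 (224 CPM per kb), Mrpl18 (170), Mrpl20 (139), Mrpl22 (132) and Mrps7 (129). Because the cDNA protocol favours the 3′ end, a level per exon length understates long transcripts, and the order depends on the scale. Mrpl15, with 8487 exon bases, had a control median of 287 CPM but 33.8 CPM per kb, while Mrps7 had 267 CPM.

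At the other end were genes with very little RNA. Mrpl23, whose protein lines the exit of the peptide tunnel, reached at most 0.318 CPM in controls and 1.01 CPM in Ehmt2Mat embryos and did not pass the filter on low counts, so 77 members were tested. Mrps36 was counted at 0 to 1.27 CPM in controls and 0.121 to 2.56 CPM in Ehmt2Mat embryos. Its product is also known as a subunit of the oxoglutarate dehydrogenase complex. Both genes have annotated pseudogenes that share sequence with them, and 11.8% of the 50-base windows of Mrpl23 transcripts and 17.3% of those of Mrps36 also occur in transcripts of other genes, so their low counts are uncertain. Over the members the median was 2.94% of windows shared, and 21 members shared over 10%. These include 3 of the members called below, Mrps18b (30.2%), Mrpl27 (26.9%, mostly with Gm6304) and Mrps24 (11.8%), whose counts are uncertain to that extent. Mrpl53, Mrps34 and Mrps25 shared 81.98%, 71.8% and 68.2%, mainly with genes that overlap them.

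The family varied less from embryo to embryo than other genes did. The median SD of log2(CPM + 1) among controls was 0.53 over the members tested and 0.82 over all 11754 genes tested, and among Ehmt2Mat embryos it was 0.46 and 0.71. The comparison was not matched on expression level. The 3 members with the widest spread among controls were Mrps5 (SD 0.99), Mrpl9 (0.96) and Mrpl1 (0.93). Mrps5, a protein of the mRNA entry site, ranged from 1.598 to 22.1 CPM in controls, and Mrpl1 from 8.29 to 68.8 CPM.

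Ehmt2Mat embryos were then set against controls, the comparison that asks what maternal G9a contributes to expression at this stage. The family was taken up with this comparison known, so the calls and fold changes of its members are given as a description and nothing is read from their number. A gene was called at a Benjamini-Hochberg adjusted p under 0.05 in edgeR's quasi-likelihood test across all 11754 genes. Of 77 members tested, 5 were called lower (6.49%, against 4.98% of all genes tested) and 6 were called higher (7.79%, against 4.37% of all genes tested). The remaining 66 were not called, and 47 of these lay within 0.5 of 0 on the log2 scale. The median log2 fold change of the members was 0.080, against -0.043 over all genes tested, with 41 members above 0 and 36 below, and single values ran from -2.05 to 1.33. The median standard error of a member was 0.25. Without control 10, 6 members were called lower (7.79%, against 5.54% of 11854 genes tested) and 7 higher (9.09%, against 5.02%).

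**Figure D1:**
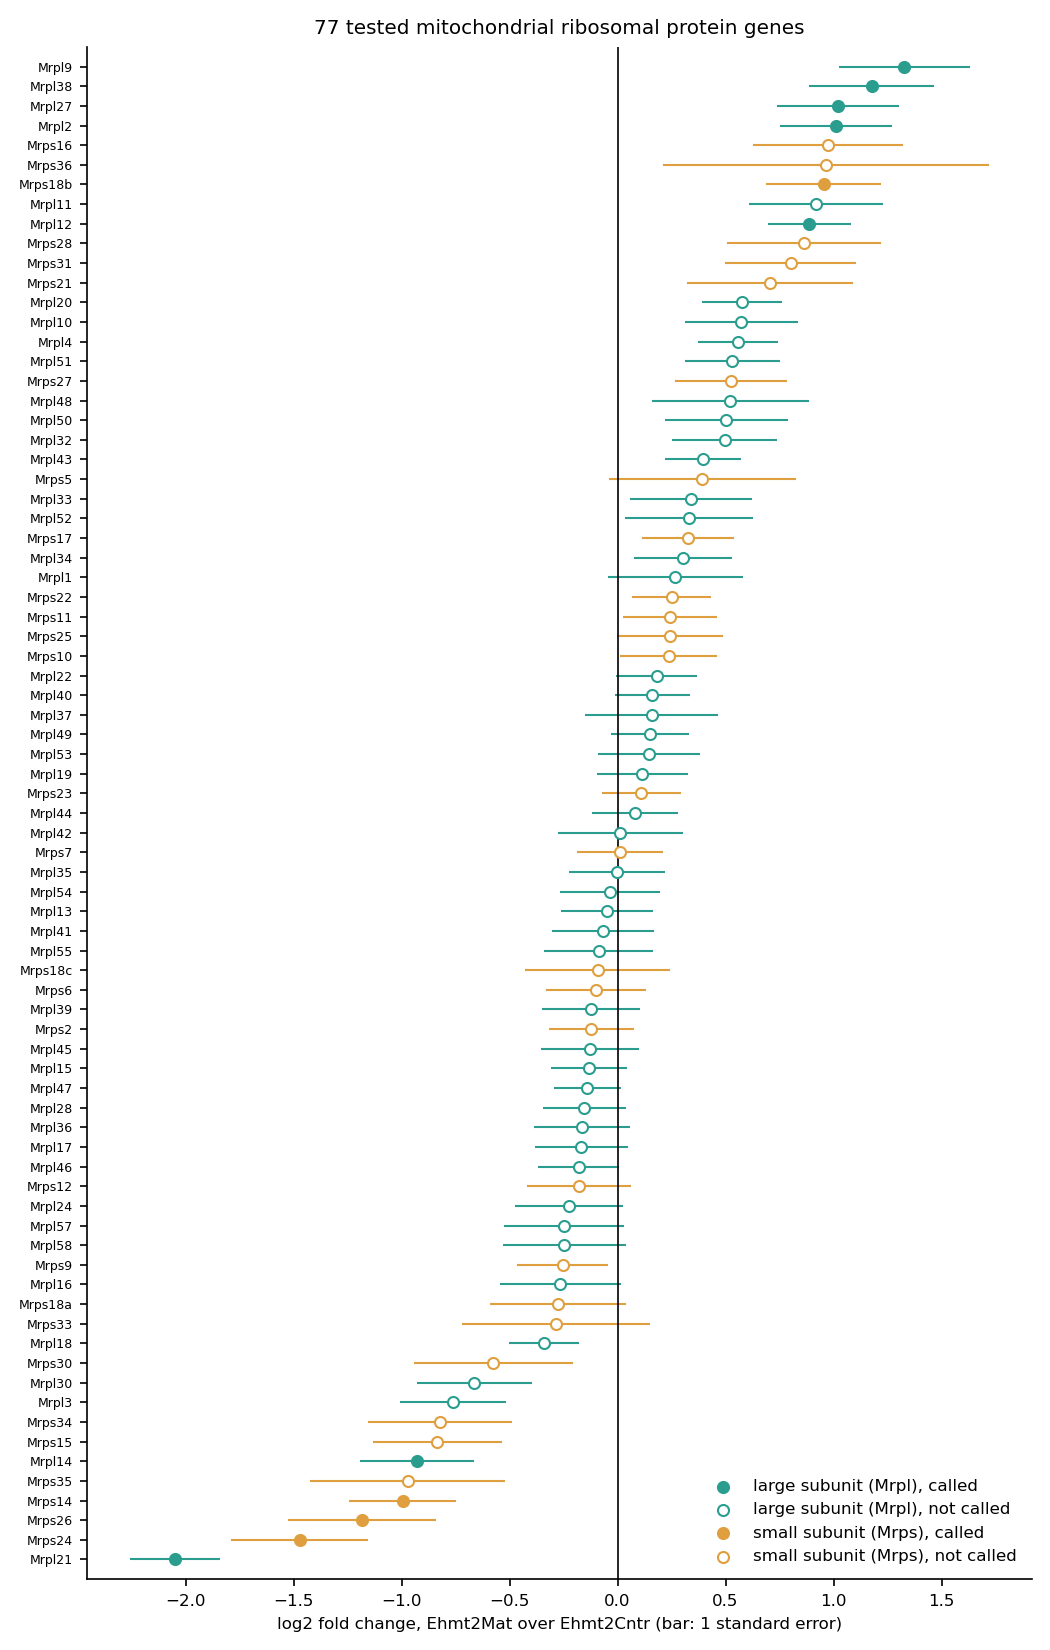
Log2 fold change of the 77 tested members, Ehmt2Mat over Ehmt2Cntr, one gene per line and ordered by value, with bars of 1 standard error and colours for the subunit in the gene's name. Filled points are the 5 members called lower and the 6 called higher, from Mrpl21 at -2.05 to Mrpl9 at 1.33, and most open points lie close to 0.

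Mrpl21 (ENSMUSG00000024829, GRCm38 chromosome 19, 3282901 to 3292837), the counterpart of a bacterial protein that binds large-subunit rRNA, had the lowest fold change of the family. Its level was 41.3, 94.7 and 115 CPM (lowest, median and highest) in controls and 15.1, 21.3 and 27.0 CPM in Ehmt2Mat embryos. Every Ehmt2Mat embryo lay below every control, and the lowest control was control 10. The log2 fold change was -2.05 (SE 0.21), or 4.14-fold lower. Mrpl21 was the 1 member whose groups did not overlap, while 0.179% of all genes tested had all Ehmt2Mat embryos below all controls and 0.34% had them all above. Without control 10 the lowest control was at 66.2 CPM and the log2 fold change was -2.14 (SE 0.19). The groups then did not overlap in Mrpl21 and in Mrpl38, which lay above the controls and had overlapped through control 10 alone. Of all genes tested, 0.468% and 0.647% then lay all below and all above. As control 10 was set aside after its values were seen, these separations are a description. The 5 Ehmt2M/Z embryos held 27.0, 15.1, 18.3, 19.5 and 21.6 CPM and the 5 Ehmt2M/+ embryos 23.6, 24.4, 21.9, 20.9 and 20.3 CPM, so the ranges of the 2 zygotic genotypes overlapped.

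The other members called lower were mostly proteins of the small subunit. Mrps24, the counterpart of a bacterial protein at the mRNA entry channel, had 62.4, 163 and 308 CPM in controls and 24.4, 63.8 and 139 CPM in Ehmt2Mat embryos, for a log2 fold change of -1.47 (SE 0.32). All 10 Ehmt2Mat embryos lay below the control median, but 5 of them lay within the range of the controls. Mrps26, a protein found in mitochondrial and not in bacterial ribosomes, had 45.5, 84.5 and 155 CPM against 13.6, 28.9 and 93.4 CPM, a log2 fold change of -1.18 (SE 0.34). Here 9 of 10 Ehmt2Mat embryos lay below the control median.

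Mrps14, a protein of the small-subunit head, had 37.7, 81.8 and 112 CPM in controls and 17.7, 37.3 and 60.9 CPM in Ehmt2Mat embryos, for a log2 fold change of -0.996 (SE 0.25). Mrpl14, which lies on the face of the large subunit that meets the small one, had 17.9, 37.4 and 65.7 CPM against 9.33, 20.1 and 26.2 CPM, a log2 fold change of -0.93 (SE 0.27). In both genes all 10 Ehmt2Mat embryos lay below the control median while the ranges overlapped.

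Of the 6 members called higher, 5 belong to the large subunit. Mrpl9 had 9.92, 55.3 and 108 CPM in controls and 69.8, 151 and 244 CPM in Ehmt2Mat embryos, for a log2 fold change of 1.33 (SE 0.30). All 10 Ehmt2Mat embryos lay above the control median and 8 lay above the highest control. Mrpl12 forms the stalk that recruits elongation factors to the ribosome, and had 82.7, 160 and 230 CPM in controls against 199, 275 and 433 CPM, a log2 fold change of 0.89 (SE 0.19). Here too 8 of 10 Ehmt2Mat embryos lay above the highest control, and control 10 was the lowest of all. The next control was at 129 CPM, and without control 10 the log2 fold change was 0.80 (SE 0.18).

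Mrpl38, a protein without a bacterial counterpart, had 8.13, 13.4 and 34.1 CPM in controls and 28.01, 32.8 and 52.3 CPM in Ehmt2Mat embryos, for a log2 fold change of 1.18 (SE 0.29), and the highest control was control 10. The next control was at 23.1 CPM, below every Ehmt2Mat embryo, and without control 10 the log2 fold change was 1.39 (SE 0.28). Mrpl2 and Mrpl27, which lie near the site where peptide bonds form, had log2 fold changes of 1.01 (SE 0.26) and 1.02 (SE 0.28). Control levels of Mrpl2 were 18.6 to 54.1 CPM and those of Mrpl27 7.23 to 22.01 CPM, and Ehmt2Mat levels were 35.7 to 101 CPM and 14.3 to 34.9 CPM. Mrps18b, one of 3 paralogs, had 18.1 to 64.9 CPM in controls and 34.5 to 103 CPM in Ehmt2Mat embryos, for a log2 fold change of 0.95 (SE 0.27). In each of these 4 genes all 10 Ehmt2Mat embryos lay above the control median.

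**Figure D2:**
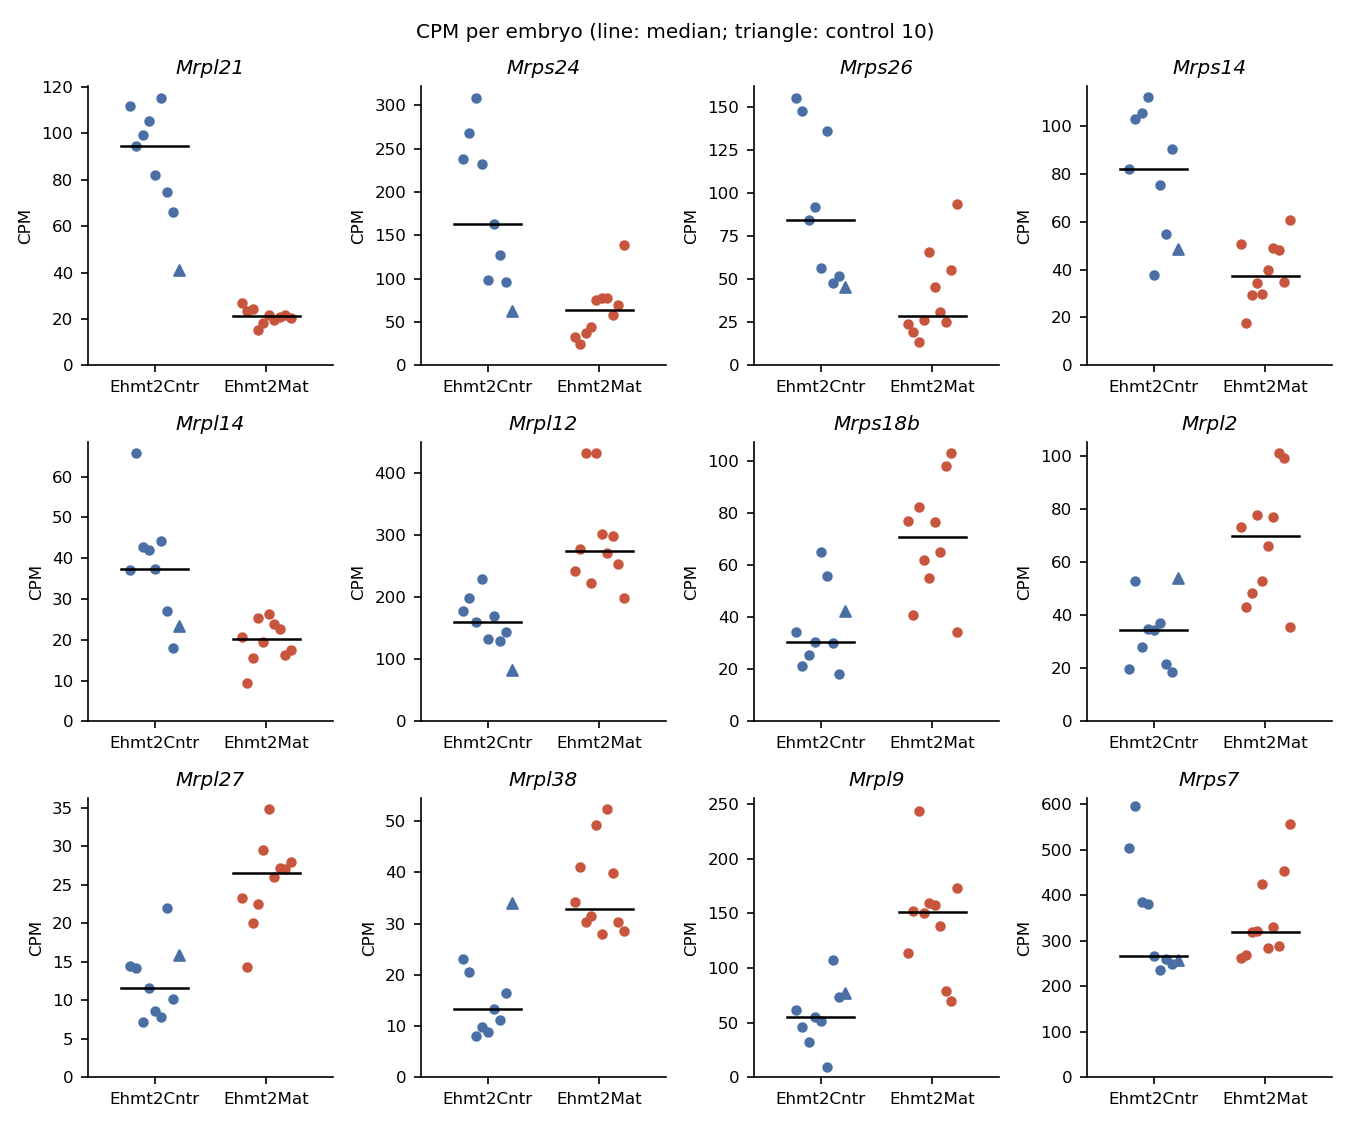
CPM per embryo of the 11 called members and of Mrps7, a member near 0 on the log2 scale, in 9 Ehmt2Cntr (blue) and 10 Ehmt2Mat (red) embryos, with a line at the group median and a triangle for control 10. In Mrpl21 every red point lies below every blue one, and in the other panels the ranges overlap, in Mrpl38 through control 10 alone.

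Other members are given by their place in the ribosome, without a test of the differences between them. At the base of the stalk, Mrpl10 and Mrpl11 had log2 fold changes of 0.57 (SE 0.26) and 0.92 (SE 0.31) beside 0.89 for Mrpl12, and neither was called. At the decoding site and head of the small subunit, Mrps12 was at -0.18 (SE 0.24) and Mrps7 at 0.011 (SE 0.20), and at the mRNA entry Mrps5 was at 0.39 (SE 0.43). Around the exit of the peptide tunnel, Mrpl24 was at -0.23 (SE 0.25) and Mrpl45, which holds the ribosome to the inner membrane, at -0.13 (SE 0.23). Mrpl18, the counterpart of a protein that binds a small ribosomal RNA in bacteria, was at -0.34 (SE 0.16). Mrpl3 and Mrpl4, both of the large-subunit core, were at -0.76 (SE 0.25) and 0.56 (SE 0.18) and lay just outside the call threshold, as did Mrpl20 and Mrpl11. Mrpl20 (log2 fold change 0.58) is named after its values were seen.

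The Mrps18 paralogs are known to occupy different places, with Mrps18a found in the large subunit despite its name. Mrps18a was at -0.28 (SE 0.32) and Mrps18c at -0.092 (SE 0.34) on the log2 scale, beside 0.95 for Mrps18b.

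Taken by subunit name, 2 of 48 large-subunit members tested were called lower (4.17%, against 4.98% of all genes) and 5 higher (10.4%, against 4.37%), with a median log2 fold change of 0.10, and 3 of 29 small-subunit members were called lower (10.3%) and 1 higher (3.45%), with a median of 0.011. The small-subunit genes made up 29.2%, 31.1% and 32.8% (lowest, median and highest) of the family's summed CPM in controls and 24.8%, 28.1% and 32.5% in Ehmt2Mat embryos, and 8 of 10 Ehmt2Mat embryos lay below the lowest control. This share draws on the same comparison as the calls and is a description as well. It weighs genes by their level, so single called members count for much in it. The mean small-subunit sum was 1991 CPM in controls and 1883 CPM in Ehmt2Mat embryos, and that of Mrps24 alone 177 and 63.8 CPM. The mean large-subunit sum was 4414 and 4764 CPM. Mrps18a was counted by its name, and no like share was computed for other genes.

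**Figure D3:**
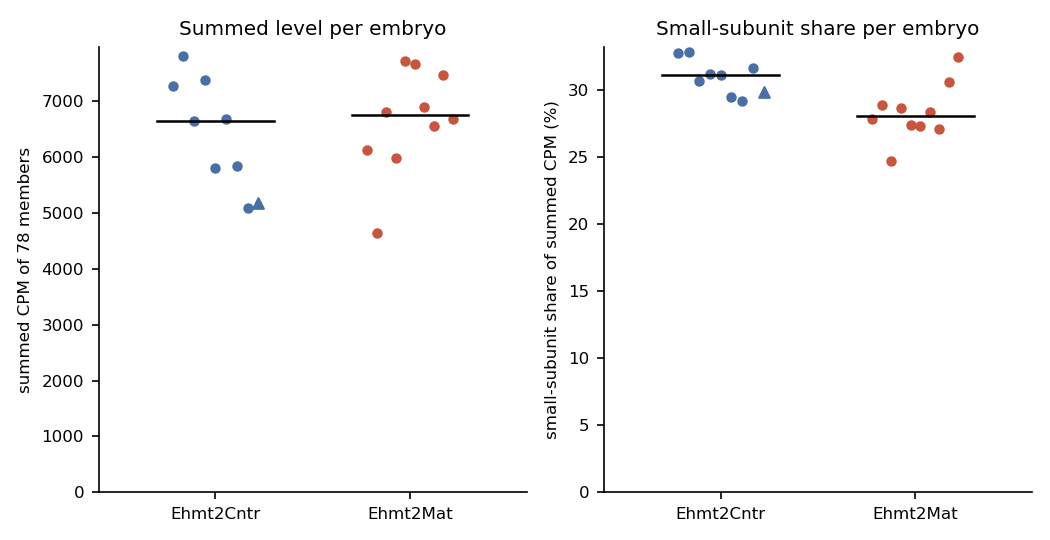
Summed CPM of the 78 members (left) and the percentage of it from Mrps genes (right) per embryo, with a line at the group median and a triangle for control 10. The sums overlap, at 5080 to 7802 CPM in controls and 4637 to 7716 CPM in Ehmt2Mat embryos, and the small-subunit share is 29.2% to 32.8% and 24.8% to 32.5%.

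The counting did not separate genes that overlap. A read was counted for every gene it met, without strand, so that reads from shared exon bases were added to both genes. Exons of 29 of the 78 members overlap those of another gene, and these include 8 of the 11 called members (72.7%, against 31.8% of the members tested and not called). The overlap was 117 bases with Ighmbp2 for Mrpl21, 226 with Urgcp for Mrps24, 157 with Oaz3 for Mrpl9 and 200 with the antisense gene Gm16755 for Mrpl12. Ighmbp2 had a mean of 9.37 CPM in controls and 14.6 CPM in Ehmt2Mat embryos, where Mrpl21 had a median of 21.3 CPM. Oaz3 had means of 2.11 and 7.92 CPM, for a log2 fold change of 1.90 (SE 0.66), and neither gene was called. Urgcp had 76.5 CPM in controls and 79.6 CPM in Ehmt2Mat embryos, for a log2 fold change of 0.06 (SE 0.30), beside -1.47 for Mrps24. Gm16755 was itself called higher, with a log2 fold change of 0.78 (SE 0.21), and cannot be told apart from Mrpl12 in the shared bases. The overlap was 638 bases with Gm16279 for Mrps18b, 106 with Tmem63b for Mrpl14, 75 with Eme1 for Mrpl27 and 8 for Mrps26, and none of these 4 partners was called. Mrps14, Mrpl38 and Mrpl2 overlap no other gene.

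Promoters of the family are known to carry sites for the nuclear respiratory factor NRF1 and for ETS family factors, which drive nuclear genes of the mitochondrion. RefSeq promoters (GRCm38.p6, 250 bases before to 50 after a gene's start) were at hand for 69 of the 78 members, with 75 promoters in all. The NRF1 motif GCGCANGCG was present on either strand in 21.3% of them, against 14.0% of promoters of the genes tested and 6.25% of all 32851 promoters. The ETS motif CCGGAAG was present in 34.7%, against 18.7% and 8.86%, and the YY1 motif AAGATGGCG in 10.7%, against 3.25% and 1.4%. The E-box CACGTG was present in 9.33%, against 10.3% and 7.15%, and TATAAA in 6.67%, against 6.71% and 13.6%. In 72 promoters of cytosolic ribosomal protein genes, NRF1 was present in 12.5%, ETS in 36.1% and YY1 in 6.94%. The E-box was present there in 11.1% and TATAAA in 8.33%, so the ETS share was not particular to the mitochondrial family. The letters of the ETS and YY1 motifs can overlap, and NRF1 matches on the 2 strands can overlap each other.

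The stretches from 120 bases before to 30 after the start are shown for 2 members called lower and 2 called higher, to set the motifs of both directions beside each other. They were picked by hand, not by a rule, and each holds an NRF1 or ETS motif. The promoters of the called members Mrps24, Mrps14 and Mrpl2 hold neither. All stretches shown are on the plus strand, and capitals mark matches to the NRF1 or ETS motif.
Mrpl21 (chr19:3282922-3283071, called lower, ETS motif): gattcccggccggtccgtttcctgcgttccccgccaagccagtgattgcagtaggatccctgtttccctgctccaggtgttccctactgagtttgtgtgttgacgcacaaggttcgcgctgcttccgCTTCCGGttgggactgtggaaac
Mrps26 (chr2:130563637-130563786, called lower, ETS and NRF1 motifs): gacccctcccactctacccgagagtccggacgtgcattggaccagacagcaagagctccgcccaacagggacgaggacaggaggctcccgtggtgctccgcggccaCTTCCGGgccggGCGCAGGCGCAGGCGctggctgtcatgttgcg
Mrpl9 (chr3:94443216-94443365, called higher, NRF1 motif on both strands): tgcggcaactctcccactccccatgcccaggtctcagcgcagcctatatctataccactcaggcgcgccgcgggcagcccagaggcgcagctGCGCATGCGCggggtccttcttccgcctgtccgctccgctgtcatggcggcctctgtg
Mrpl12 (chr11:120484517-120484666, called higher, NRF1 motif): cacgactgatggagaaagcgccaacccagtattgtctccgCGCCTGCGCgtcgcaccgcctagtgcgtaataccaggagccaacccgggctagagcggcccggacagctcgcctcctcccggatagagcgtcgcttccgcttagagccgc
The NRF1 and ETS motifs occurred in members of both directions, and the difference was not tested. The NRF1 motif was in 2 of 5 promoters of members called lower and in 3 of 7 of those called higher, which belong to 5 genes, and the ETS motif in 2 of 5 and 2 of 7. The E-box was in 3 of the 7, all of them alternative promoters of Mrpl2, and in 0 of 5. The YY1 motif and TATAAA were each in 1 of 5 and 0 of 7.

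The choice of the family made no use of the zygotic genotypes, so these comparisons were tested. The first asks what a functional zygotic Ehmt2 copy changes in maternally depleted embryos. Between 5 Ehmt2M/Z and 5 Ehmt2M/+ embryos, 0 of 77 members and 0% of 12195 genes tested were called (edgeR, adjusted p under 0.05), and 0 members had an unadjusted p under 0.05, against 2.21% of all genes. DESeq2 called 0 members and 3 genes in all. Log2 fold changes of members ran from -0.68 to 0.93 with a median of 0.064 and a median standard error of 0.32, so differences as large as many of those above may not be detectable with 5 embryos in each group. The highest was Mrps5, at 0.93 (SE 0.44, adjusted p = 0.9997 from edgeR). Mrpl21 differed by -0.13 (SE 0.34), Mrps24 by -0.16 (SE 0.43), Mrpl9 by -0.34 (SE 0.30) and Mrpl12 by -0.081 (SE 0.25).

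The second asks the same of heterozygosity where the mother supplied G9a. Between 3 controls of genotype +/- and 6 of +/+, 0 of 77 members and 0% of 12646 genes tested were called, and DESeq2 called 0 members and 3 genes. The 1 member with an unadjusted p under 0.05 (4.52% of all genes) was Mrpl20, chosen after its values were seen, with 306, 295 and 266 CPM in +/- controls and 132 to 298 CPM in +/+ controls, a log2 fold change of 0.66 (SE 0.30, adjusted p = 0.9998 from edgeR). Log2 fold changes of members ran from -0.97 to 0.72, with a median of 0.0053 and a median standard error of 0.42. Mrpl21 differed by -0.080 (SE 0.35) and Mrpl9 by 0.0084 (SE 0.56). Without control 10, which is a +/- embryo, 0 members and 1 of 13225 genes (0.00756%) were called, and 2 members (2.6%) had an unadjusted p under 0.05, against 7.42% of all genes.

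Maternal genotype was also compared within the zygotic genotype +/-, which both groups contain, in 5 Ehmt2Mat and 3 control embryos. All of these embryos are also in the main comparison, by which the members below were called. Their fold changes here are therefore a description and not a separate test. In this edgeR fit 1 of 13401 genes and 0 members were called, and 5 members (6.49%) had an unadjusted p under 0.05, against 6.76% of all genes. The log2 fold change was -1.93 (SE 0.40) for Mrpl21, -1.595 (SE 0.56) for Mrps24, 1.47 (SE 0.42) for Mrpl9 and 1.09 (SE 0.35) for Mrpl12. Of the other members called with all embryos, Mrps26 was at -1.28 (SE 0.60), Mrps14 at -1.01 (SE 0.45) and Mrpl14 at -0.93 (SE 0.51). Mrpl27 was at 0.97 (SE 0.58), Mrps18b at 0.95 (SE 0.46) and Mrpl2 at 0.76 (SE 0.49). Mrpl38 was at 0.60 (SE 0.53), beside 1.18 with all embryos. Of the members named as just outside the call threshold, Mrpl20 was at 0.13 (SE 0.26), beside 0.58 with all embryos. Mrpl4 was at 0.30 (SE 0.32), Mrpl11 at 0.85 (SE 0.54) and Mrpl3 at -0.71 (SE 0.44). The 3 controls include control 10, and in a comparison without it, which was chosen after seeing the data and left 2 controls, 0 members and 7 of 14222 genes (0.0492%) were called. The log2 fold changes were then -2.23 (SE 0.41) for Mrpl21, -1.99 (SE 0.54) for Mrps24, 1.78 (SE 0.49) for Mrpl9 and 0.85 (SE 0.36) for Mrpl12. Mrpl38 was at 1.13 (SE 0.63). In this fit 10 members (13.0%) had an unadjusted p under 0.05, against 11.8% of all genes.

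**Figure D4:**
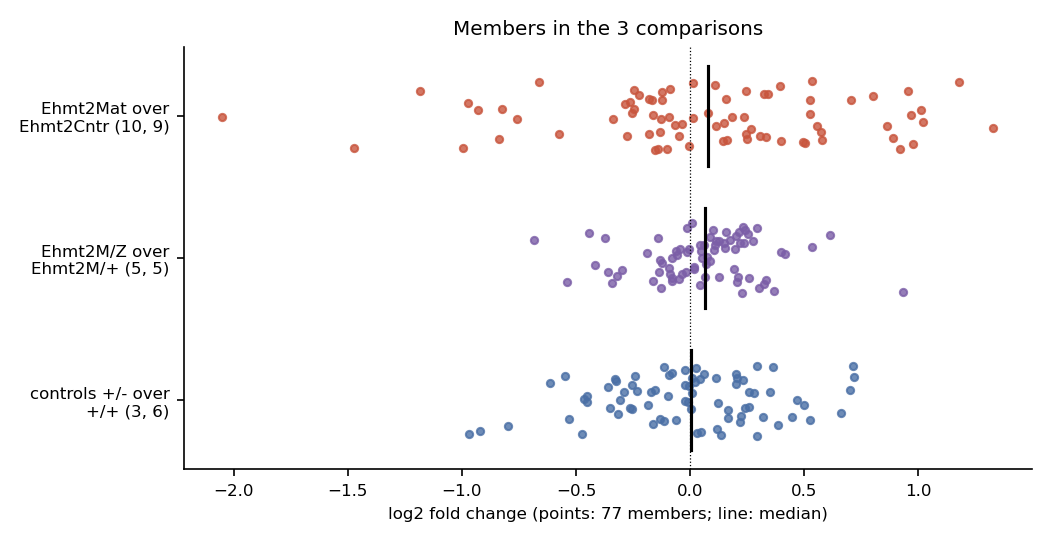
Log2 fold changes of the 77 tested members in the comparison of maternal genotype (top), of Ehmt2M/Z with Ehmt2M/+ (middle) and of +/- with +/+ controls (bottom), with the number of embryos in brackets and a line at the median. Values span -2.05 to 1.33, -0.68 to 0.93 and -0.97 to 0.72, and the comparisons share embryos.

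Genes that work with the mitochondrial ribosome were examined by lists written from their symbols. In the 5 lists outside the family, 3 of 75 tested genes were lower in Ehmt2Mat embryos (4.98% of all genes tested were) and 1 was higher (4.37%). The 3 that fell are assembly factors, from a list of 27 with a median log2 fold change of 0.15. Malsu1, which binds the large-subunit protein Mrpl14 and keeps unfinished subunits from joining, fell by 1.57 on the log2 scale (SE 0.37, adjusted p = 0.0084 from edgeR), from 31.3, 40.5 and 98.6 CPM to 2.57, 13.9 and 42.8 CPM. Rbfa, which matures the small-subunit rRNA, fell by 1.06 (SE 0.25, adjusted p = 0.0086 from edgeR), from 24.2, 59.8 and 70.3 CPM to 14.5, 25.6 and 49.8 CPM. Mpv17l2, a membrane protein linked to ribosome assembly, fell by 1.65 (SE 0.47), from 4.17, 8.98 and 27.8 CPM to 1.40, 3.18 and 7.03 CPM. The ranges of the groups overlapped in all 3, and the other 24 assembly factors were not called.

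No gene passed the test in edgeR among the 16 translation factors (median log2 fold change -0.057) or the 17 mitochondrial aminoacyl-tRNA synthetases (median -0.11). Nor did any of the 5 ribosomal proteins with other names (median -0.20). In these 3 lists 4, 2 and 2 genes had an unadjusted p under 0.05, while 23.3% of all genes tested did. DESeq2 called 1 gene in each list and 1775 of 11754 genes in all. Of the 5 ribosomal proteins with other names, the large-subunit protein Gadd45gip1 had -0.78 (SE 0.26) and the small-subunit protein Ptcd3 0.50 (SE 0.22). Dap3, a small-subunit protein that binds GTP, had -0.20 (SE 0.32).

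Of the 15 genes of the mitochondrial genome, 10 were tested and 5 were listed at 0 in every embryo. The rRNA of the small subunit, mt-Rnr1, rose by a log2 fold change of 2.23 (SE 0.56, adjusted p = 0.014 from edgeR), from 384, 2084 and 3580 CPM to 636, 5870 and 26292 CPM, and the ranges overlapped. The rRNA of the large subunit, mt-Rnr2, had a log2 fold change of 0.62 (SE 0.32) and was not called. These 2 rRNAs were the only tested genes of this list above 0, while 8 lay below 0, and the list's median was -0.28. In edgeR 1 of the 10 was called higher (10%, against 4.37% of all genes) and 0 lower. DESeq2 called 1 higher and 2 lower, while it called 7.04% and 8.06% of all genes.

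Nuclear genes of the respiratory chain and of the cytosolic ribosome were examined in the same way. Of 79 nuclear respiratory chain genes tested, 3 fell (3.8%, against 4.98% of all genes) and 2 rose (2.53%, against 4.37%), with a median log2 fold change of 0.051. Cox5a, a subunit of cytochrome c oxidase, fell by 1.95 (SE 0.34) from 35.3, 285 and 390 CPM to 34.98, 51.4 and 142 CPM, Uqcrfs1 of the bc1 complex fell by 1.40 (SE 0.29) and Atp5mpl of ATP synthase fell by 0.90 (SE 0.27). Ndufa9 of complex I rose by 1.14 (SE 0.25), and Cox7b2 rose from at most 0.603 CPM in controls to at most 8.52 CPM. Of 81 cytosolic ribosomal protein genes tested, 1 fell and 16 rose (19.8%, against 4.37% of all genes), with a median log2 fold change of 0.45, beside 0.080 for the mitochondrial family. Rpl10l, Rpl7a, Rps3 and Rpl37a rose by log2 fold changes of 1.70, 1.30, 0.86 and 1.02, and Rpl13 fell by 0.84. Cytosolic ribosomal protein genes have many processed pseudogenes, so their counts are uncertain. The counting was set to keep multi-mapping reads, but whether the alignments held any is not known. The difference between the lists was not tested.

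**Figure D5:**
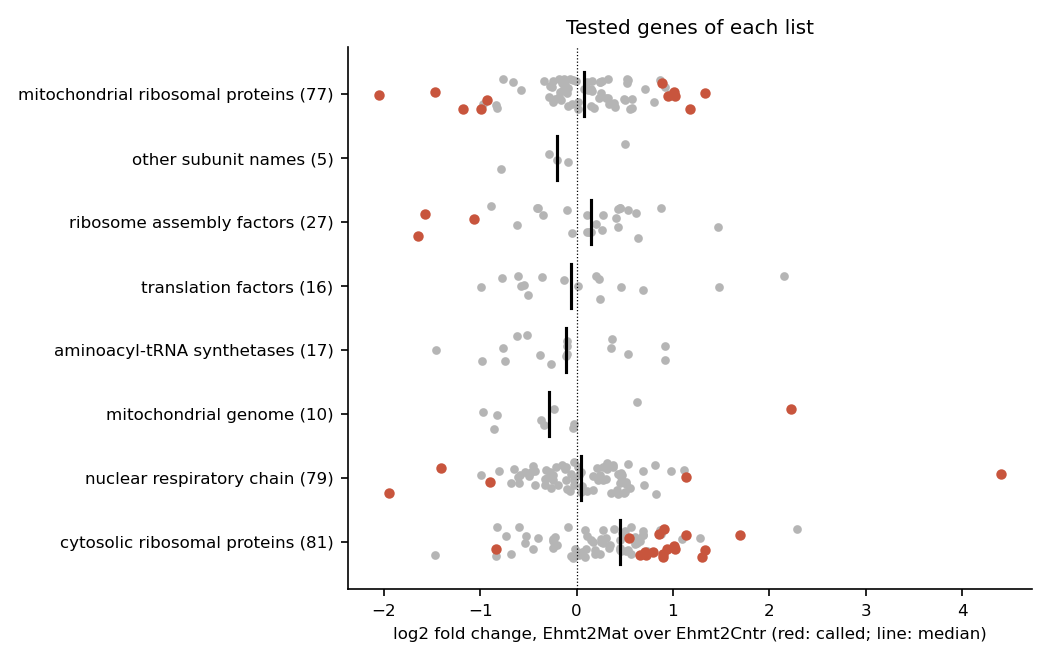
Log2 fold change, Ehmt2Mat over Ehmt2Cntr, of the tested genes of each list, with the number of genes in brackets, called genes in red and a line at the list's median. The medians lie between -0.28 for the mitochondrial genome and 0.45 for cytosolic ribosomal proteins, with the mitochondrial ribosomal proteins at 0.080.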

How the data were processed

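The authors deposited raw counts of reads per gene for each embryo, without normalization. The file headers record featureCounts 1.5.0 on exons of Ensembl release 82 (GRCm38/mm10), with a minimum overlap of 10 bases, no strand, each read counted for every gene it overlapped and multi-mapping reads kept. The submitters' processing notes name TopHat2. The aligner behind the counted alignments is not certain, nor is whether they still held multi-mapping reads. Libraries were single-end 50 bp reads of amplified cDNA.

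Counts were filtered with filterByExpr of edgeR 4.0.16 (R 4.3.3), which left 11754 genes, scaled by TMM and tested by quasi-likelihood without covariates. Genes with a Benjamini-Hochberg adjusted p under 0.05 were called. CPM use TMM-scaled library sizes, and standard errors follow from the fold change and its F statistic. Scripts were tested on simulated data. No embryos had identical counts. Symbols were matched for 34599 gene IDs. Members and lists were chosen with earlier results of these data known. Named members are the called ones, at most 10 lowest and 5 highest by log2 fold change, members with a known place in the ribosome and the 3 with the widest control spread, and at most 4 called genes per other list and direction. Mrpl12 is named by its place, as the fold rule leaves it out. The alternatives tried were DESeq2 1.42.0, scaling by RLE or by the upper quartile, other filters, thinned counts, library sizes without mitochondrial genes, the embryo number as a block, +/- embryos alone, with and without control 10, members without overlap and each embryo left out. Shared windows of 50 bases were sought in GENCODE transcripts of the same assembly.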

Additional observations from a re-analysis of the deposited data

Results flagged for a closer look

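Of 52 sets of values examined (the named members and the family's sum, in each group), 2 held an embryo whose gap to its neighbour was large for the group, and chance gives about 1 such set in 20. Mrps24 was 139.5 CPM in Ehmt2Mat embryo 10, against 78.3 CPM in the next highest embryo. Mrpl23 was 1.008 CPM in Ehmt2Mat embryo 5, against 0.447 CPM in the next, and this gene was not tested.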

How the results depend on the processing

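The median log2 fold change of the members stayed above 0 under the other alternatives run, between 0.018 and 0.13, and was -0.024 in +/- embryos without control 10, an alternative chosen after seeing the data in which the median of all genes was 0.19. The counts moved more. With DESeq2, 11 members were called higher, and 10 were with at least 10 counts in every embryo, beside 6 in the analysis above. Over all genes these settings called 1775 of 11754 and 1375 of 7154, beside 1099 of 11754. The +/- embryos alone gave 0 lower and 0 higher, with or without control 10. Members other than the 29 of 78 that overlap another gene gave 1 lower and 2 higher, while 4.98% and 4.37% of all genes were called. Leaving out 1 embryo gave 3 to 7 members called lower (3.9% to 9.09%), the lowest without control 2. It gave 6 to 8 members called higher (7.79% to 10.4%). Over all genes tested, these fits called 3.9% to 5.88% lower and 3.48% to 5.02% higher. Genes called in the 5 other lists numbered 12 with DESeq2, 7 with at least 10 counts in every embryo, 0 in +/- embryos and 3 to 5 with one embryo left out, beside 4. Mrps26 lost its call in 7 of 19 fits that left out one embryo and Mrpl14 in 1 of 19, and the other called members in none. Other settings removed more calls, among them the replicate block described below. Without the filter the median of all genes moved to 0.13, and that of the members was 0.12.

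The embryo numbers were not used to pair the samples. The 9 same-numbered pairs deviated together by a mean correlation of 0.029 (from -0.11 to 0.12), against -0.0033 for differently numbered pairs. These values cannot show whether same-numbered embryos were collected or prepared together. A fit with that number as replicate block called 1 member lower (1.3%, against 2.93% of all genes tested) and 4 higher (5.19%, against 3.02%). The member called lower was Mrpl21. Those called higher were Mrpl9, Mrpl12, Mrpl38 and Mrpl20, of which Mrpl20 was not called in the main fit. Mrps24, Mrps26, Mrps14, Mrpl14, Mrpl2, Mrpl27 and Mrps18b lost their calls. The block fit called 2 genes of the other lists and 699 of 11754 genes in all.

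Members near 0 changed sign. In +/- embryos alone Mrps7 was at -0.17, Mrps5 at -0.16 and Mrps18a at 0.46, and without control 10 they were at -0.35, -0.29 and 0.27. With one embryo left out, Mrps7 ran from -0.081 to 0.14 and Mrps18c from -0.18 to 0.035. Causes were not tested, beyond the smaller number of embryos or genes in those fits. With 8231646 to 30602434 counts per embryo, depth limits most the members with the fewest counts, Mrpl23 and Mrps36.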
